A study of Rattus norvegicus with 8 samples.

Results

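The CXC chemokine ligands are small secreted proteins that guide leukocytes along gradients. The 10 genes described here are Cxcl1, Cxcl2, Cxcl3, Cxcl9, Cxcl10, Cxcl11, Cxcl12, Cxcl13, Pf4 and Ppbp, taken by their symbols from a table of 23487 genes, in which all 10 were found. Of these, 7 had enough counts to be tested among 12124 genes, and Cxcl11, Cxcl13 and Ppbp did not. RNA was sequenced from macrophages sorted from the peritoneal cavity of Wistar rats, 8 weeks old, 15 days after intraperitoneal injection of multi-walled carbon nanotubes. The injected particles were MWCNT-XNRI-7 (CNT-7, needle-like and mesotheliomagenic) in 4 rats and the tangled CNT-T (non-mesotheliomagenic) in 4 rats. Macrophages of untreated rats were not analysed here, so each difference is one between both particles. The rats are named by the numbers in their labels, which are 3, 5, 10 and 11 for CNT-7 and 1, 2, 12 and 13 for CNT-T.

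Several families can be told apart by their receptors. Cxcl1, Cxcl2 and Cxcl3 bind Cxcr2 and attract neutrophils, and in macrophages NF-kappaB and Toll-like receptor signalling induces them. Cxcl9, Cxcl10 and Cxcl11 are induced by interferons and attract T and NK cells that carry Cxcr3. Cxcl12 is the homeostatic ligand of Cxcr4 and of the scavenging receptor Ackr3, and Cxcl13 guides B cells through Cxcr5, a role known from the serous cavities. Pf4 and Ppbp are best known as contents of platelet granules, and Pf4 is also transcribed by macrophages. In the RefSeq gene order of the rat assembly GRCr8, 9 of the 10 genes lie on chromosome 14. Cxcl2 is the neighbour of Cxcl1 there, Cxcl11, Cxcl10 and Cxcl9 stand next to each other, and Pf4 lies between Cxcl3 and Ppbp. Cxcl12 is on chromosome 4.

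Each rat had 27195157 to 33732981 counts in total, and 3 counts corresponded to between 0.0887 and 0.109 CPM (counts scaled to a library of 1000000 after TMM normalization). Such a floor covers counting error only. The macrophage markers were present, with all 9 listed genes tested. Cd68, Csf1r, Adgre1, Fcgr1a and Cd163 were lower and Cd14 and Gata6 higher in CNT-7, and without Lyz2 the list had a summed level of 2705 to 3306 CPM in CNT-7 rats against 3778 to 4447 CPM in CNT-T rats. The summed level of the 8 eosinophil and mast cell markers was 31.2 to 92.0 CPM in CNT-7 rats against 0.177 to 1.65 CPM in CNT-T rats. In the CNT-7 rats most of this was from Hdc, which encodes the enzyme that makes histamine. Without Hdc the sums overlapped, at 0.794 to 9.82 against 0.118 to 1.52 CPM, with Epx at 0 counts in every rat. Ccr3 had 8.74 CPM in CNT-7 rat 3 and at most 0.637 CPM in any other rat. The part of such cells in the results on the ligands was not tested. Because the RNA is from a bulk population, fewer cells of a type and less RNA per cell cannot be told apart.

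Among the 7 ligands tested, Cxcl9, Cxcl2 and Pf4 were significantly lower and Cxcl12 significantly higher in macrophages after CNT-7 than after CNT-T. A gene counted as changed where its adjusted p was below 0.10 with edgeR's quasi-likelihood test and Benjamini-Hochberg adjustment over all genes. These 4 calls of 7 compare with 27.9% of all genes tested, the 3 lower calls with 14% and the single higher call with 13.9%. The log2 fold change, given throughout as CNT-7 over CNT-T, was below 0 in 6 of the 7 ligands and in 48.9% of all genes. Its median was -0.73 over the 7 ligands and 0.0083 over all genes. The groups did not overlap for Pf4 and Cxcl12, that is 2 of 7 ligands, against 24.9% of all genes.

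**Figure D1:**
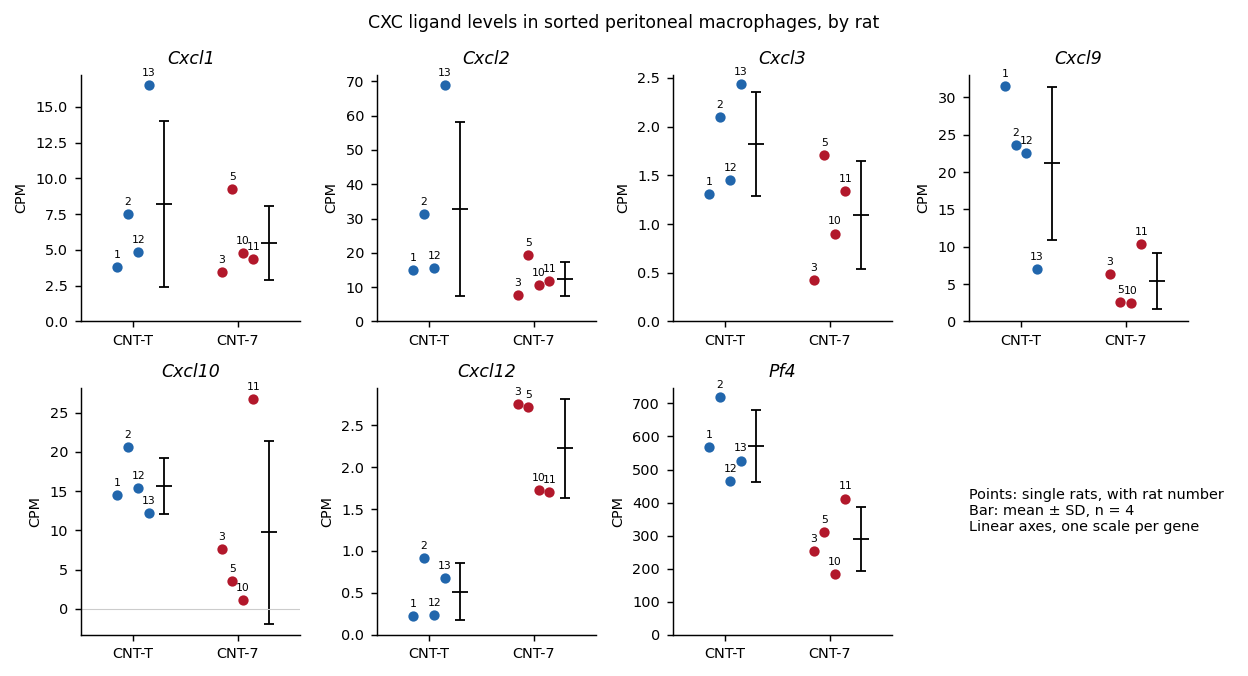
Level of the 7 ligands tested, in CPM on linear axes with a separate scale for each gene, in the 4 CNT-T rats (blue) and the 4 CNT-7 rats (red). Points are single rats with their number and the bars give mean ± SD (n = 4). Cxcl12 was above 1.70 CPM in every CNT-7 rat and below 0.92 CPM in every CNT-T rat, whereas Cxcl10 ranged from 1.08 to 26.8 CPM among the CNT-7 rats.

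Cxcl12 (ENSRNOG00000013589) was the member that rose after CNT-7. It had 2.76, 2.71, 1.73 and 1.70 CPM in CNT-7 rats 3, 5, 10 and 11, from 84, 81, 48 and 47 counts. In CNT-T rats 1, 2, 12 and 13 it had 0.228, 0.916, 0.231 and 0.680 CPM, from 7, 31, 7 and 19 counts. Every CNT-7 value exceeded every CNT-T value, and within CNT-T rats 2 and 13 were higher than rats 1 and 12. The mean was 2.23 ± 0.589 CPM in the CNT-7 group against 0.514 ± 0.342 CPM in the CNT-T group (SD, n = 4 each). The log2 fold change was 2.10 (SE 0.45, 95% interval 1.10 to 3.11, edgeR adjusted p = 0.0097), a 4.29-fold rise. Across fits that omitted single rats it stayed between 1.86 and 2.55, and its adjusted p-value was at most 0.030.

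Cxcl12 is also a product of mesothelial cells and fibroblasts. Of 12 markers of these cells, none passed the filter on low counts, Upk3b and Wt1 had 0 counts in every rat, and the list had a summed level of 0.867 to 2.31 CPM in CNT-7 rats against 0.456 to 1.19 CPM in CNT-T rats. Col1a1, named after its values were seen, had 11, 13, 2 and 1 counts in CNT-7 rats 3, 5, 10 and 11 and 0 counts in every CNT-T rat. Dcn had 1, 1, 4 and 2 counts in the same CNT-7 rats and also 0 counts in every CNT-T rat. Col1a2 had 8, 6, 2 and 6 counts in these CNT-7 rats against 0, 0, 6 and 0 in CNT-T rats 1, 2, 12 and 13. Col3a1 had 7, 17, 3 and 8 against 3, 0, 5 and 3 counts. Pdgfra had 2 to 10 counts in CNT-7 rats against 2 to 12 in CNT-T rats, and Krt19 0 to 1 against 0 to 4. These genes were also named after their values were seen. The part of such cells in the rise of Cxcl12 was not tested.

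The receptors of Cxcl12 differed from each other in their values. Cxcr4 had 17.3 ± 6.42 CPM with CNT-7 against 16.8 ± 3.52 CPM with CNT-T (SD, n = 4), with a log2 fold change of 0.038 (95% interval -0.53 to 0.61, edgeR adjusted p = 0.94). Ackr3 had 1.45, 3.02, 3.18 and 0.905 CPM in CNT-7 rats 3, 5, 10 and 11 and between 0.621 and 1.17 CPM in the CNT-T rats, so that only CNT-7 rat 11 lay within the CNT-T range. It was significantly higher after CNT-7 (log2 fold change 1.21, SE 0.42, edgeR adjusted p = 0.073). This call was lost without CNT-7 rat 5 or 10 or without CNT-T rat 2, 12 or 13, with adjusted p-values between 0.11 and 0.19.

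To show what lies before the start of the ligands the results turn on, RefSeq sequences of the assembly GRCr8 were searched from 250 bases before to 50 bases after each annotated start. Such a sequence was found for 8 of the 10 members, Cxcl3 and Pf4 having none. On both strands 3 patterns of letters were searched. They were GGG, any 3 bases and TTCC, which is common to many NF-kappaB sites, GAAA, any 2 bases and GAAA, the core of the interferon-stimulated response element (ISRE), and TTC, any 3 bases and GAA, the gamma-activated site (GAS) of interferon-gamma responses. Of 33469 promoters of the same length, 5.37%, 3.92% and 8.87% held them. In the sequence of Cxcl12, which is given here for the member that rose, none of the 3 was found.

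Cxcl12, GRCr8 chr4:152060531-152060830, plus strand: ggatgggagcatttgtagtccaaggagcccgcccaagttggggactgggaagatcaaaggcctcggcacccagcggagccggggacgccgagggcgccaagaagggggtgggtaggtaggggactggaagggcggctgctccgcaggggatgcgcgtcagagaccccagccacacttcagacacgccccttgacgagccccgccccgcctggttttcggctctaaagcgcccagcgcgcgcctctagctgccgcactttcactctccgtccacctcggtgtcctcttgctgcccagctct

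Cxcl1, Cxcl2 and Cxcl3, which attract neutrophils, all had log2 fold changes below 0, and that of Cxcl2 passed the test. Cxcl2 (ENSRNOG00000002792) had 7.72, 19.4, 10.7 and 11.7 CPM in CNT-7 rats 3, 5, 10 and 11. It had 14.9, 31.4, 15.7 and 68.9 CPM in CNT-T rats 1, 2, 12 and 13. CNT-7 rat 5 lay above CNT-T rats 1 and 12, and CNT-T rat 13 was the highest of its group. The mean was 12.4 ± 4.96 CPM in the CNT-7 group against 32.7 ± 25.3 CPM in the CNT-T group (SD, n = 4 each). The log2 fold change was -1.40 (SE 0.49, 95% interval -2.50 to -0.30, edgeR adjusted p = 0.074), a 2.64-fold difference.

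This call for Cxcl2 rested on several rats. Without CNT-7 rat 3, 10 or 11 the adjusted p-value was 0.16, 0.14 or 0.12, and without CNT-T rat 2 or 13 it was 0.13 or 0.19. The log2 fold change without CNT-T rat 13 was -0.74, against -1.40 with it. A block for low against high rat numbers gave an edgeR adjusted p of 0.104.

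Cxcl1 (ENSRNOG00000002802), which encodes the GRO/KC protein, had 3.48, 9.25, 4.77 and 4.34 CPM in CNT-7 rats 3, 5, 10 and 11. In CNT-T rats 1, 2, 12 and 13 it had 3.81, 7.51, 4.88 and 16.5 CPM. The groups overlapped, and CNT-T rat 13 was again the highest. For Cxcl1 the log2 fold change was -0.58 (95% interval -1.63 to 0.47, edgeR adjusted p = 0.43), and without CNT-T rat 13 it was 0.013.

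Cxcl3 (ENSRNOG00000028043), the closest relative of both in function, had 0.427, 1.71, 0.903 and 1.34 CPM in CNT-7 rats 3, 5, 10 and 11, from 13, 51, 25 and 37 counts. In CNT-T rats 1, 2, 12 and 13 it had 1.30, 2.10, 1.45 and 2.43 CPM, from 40, 71, 44 and 68 counts. Its log2 fold change was -0.73 (95% interval -1.63 to 0.16, edgeR adjusted p = 0.24). Among the CNT-T rats the order was 13, 2, 12 and 1 from the highest to the lowest for all 3 genes, and among the CNT-7 rats 5 was the highest and 3 the lowest for all 3.

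Because Cxcl1 and Cxcl2 are neighbours whose rats were ordered alike, their ratio within each rat was compared between the particles. The ratio of Cxcl1 counts to Cxcl2 counts was 0.451, 0.478, 0.444 and 0.372 in CNT-7 rats 3, 5, 10 and 11. It was 0.255, 0.239, 0.311 and 0.240 in CNT-T rats 1, 2, 12 and 13. Every CNT-7 ratio exceeded every CNT-T ratio, although neither Cxcl1 nor Cxcl2 separated the groups by itself. The mean ratio was 0.436 ± 0.0454 with CNT-7 against 0.261 ± 0.0338 with CNT-T (SD, n = 4). An exact permutation test of its logarithm, two-sided, gave p = 0.0286, the smallest that 4 rats against 4 allow, and 0.0857 after Benjamini-Hochberg adjustment over the 3 ratios compared. The ratios were chosen after the counts were seen, and the adjustment over 3 ratios does not correct for that choice. They are not corrected for transcript length and serve to compare rats, not the levels of both genes. The quantification divides reads between similar transcripts, and its part in the ratio was not tested. The ratio of Cxcl3 to Cxcl2 was 0.0856 ± 0.0242 with CNT-7 against 0.0705 ± 0.0259 with CNT-T (SD, n = 4), with overlap (exact permutation test, two-sided, p = 0.486, adjusted p = 0.514).

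**Figure D2:**
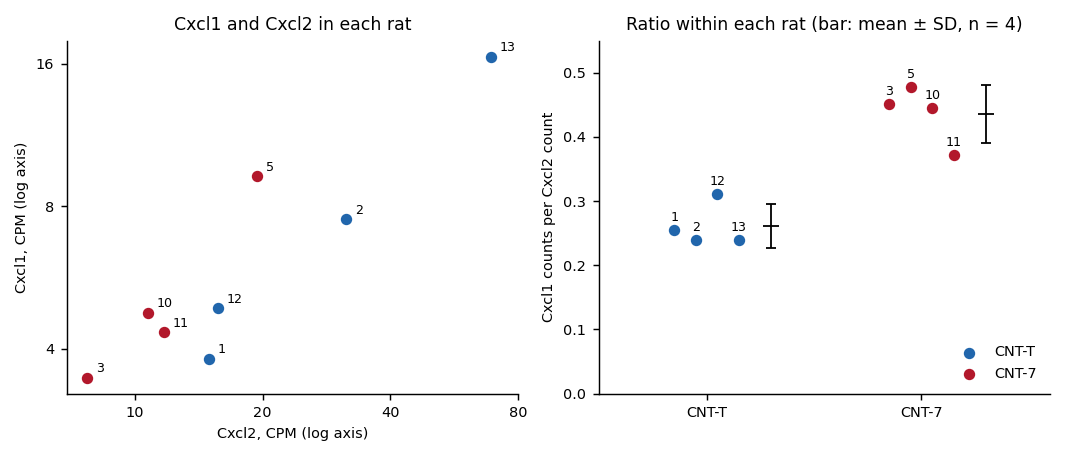
Left, level of Cxcl1 against that of Cxcl2 in each rat, in CPM on log axes. Right, counts of Cxcl1 per count of Cxcl2 in each rat on a linear axis, with mean ± SD (n = 4). The CNT-7 ratios (red) lie between 0.372 and 0.478 and the CNT-T ratios (blue) between 0.239 and 0.311.

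The starts of Cxcl1 and Cxcl2 are shown side by side, with matches to the NF-kappaB-like letters in capitals. Cxcl1 had GGGAATTTCC beginning 84 bases before the start, which the reverse strand matches again with an offset of 1 base, and GGGTGTTTCC on the reverse strand, whose leftmost base is 102 bases before it. Cxcl2 had GGGGATTTCC at 74 and GGGCTTTTCC at 54 bases before the start. Neither held the ISRE core or the GAS letters. A match describes the letters in this window and not a bound site.

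Cxcl1, GRCr8 chr14:17479272-17479571, minus strand: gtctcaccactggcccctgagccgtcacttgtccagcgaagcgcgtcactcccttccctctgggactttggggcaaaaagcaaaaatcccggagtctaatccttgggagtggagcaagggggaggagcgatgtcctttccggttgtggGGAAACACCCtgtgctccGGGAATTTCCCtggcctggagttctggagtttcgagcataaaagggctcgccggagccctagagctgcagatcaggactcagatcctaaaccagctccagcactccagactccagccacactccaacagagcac
Cxcl2, GRCr8 chr14:17467206-17467505, minus strand: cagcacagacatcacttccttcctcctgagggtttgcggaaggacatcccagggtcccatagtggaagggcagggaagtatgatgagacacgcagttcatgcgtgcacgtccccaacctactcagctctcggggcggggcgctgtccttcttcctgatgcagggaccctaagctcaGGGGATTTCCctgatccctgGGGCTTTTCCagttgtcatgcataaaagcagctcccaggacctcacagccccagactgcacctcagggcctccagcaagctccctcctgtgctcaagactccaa

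A list of genes of the NF-kappaB and Toll-like receptor axis was set beside these ligands. Those that passed the test moved the other way from Cxcl2. Of 23 genes in the list 21 were tested, 12 were significantly higher after CNT-7, which is 57.1% against 13.9% of all genes, and the other 9 did not pass the test. The median log2 fold change of the 21 was 0.36, against 0.0083 over all genes. It was below 0 in 2 of the 21, Tnf (-0.46, edgeR adjusted p = 0.28) and Ikbkb (-0.026), against 48.9% of all genes. Among the genes that passed the test, the largest rises were those of Il1b, the gene of the cytokine IL-1beta, and of Tnfaip3, which encodes A20, an inhibitor of NF-kappaB signalling. Il1b had 1.45 ± 0.381 CPM with CNT-7 against 0.230 ± 0.119 CPM with CNT-T (SD, n = 4), with a log2 fold change of 2.61 (SE 0.39, edgeR adjusted p = 0.0020). Its counts were low, 45, 53, 45 and 25 in CNT-7 rats 3, 5, 10 and 11. In CNT-T rats 1, 2, 12 and 13 they were 4, 13, 8 and 4, so that a filter of 10 counts in every rat leaves it out. Tnfaip3 had 17.9 ± 3.01 and 8.48 ± 1.04 CPM (SD, n = 4), with a log2 fold change of 1.08 (SE 0.14, edgeR adjusted p = 0.0010).

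Within the groups, the order of the rats in this list was also counted, for the rats that stood at the ends for Cxcl1, Cxcl2 and Cxcl3. These orders were chosen after the values were seen. CNT-7 rat 5 was the highest CNT-7 rat in 13 of the 21 genes (61.9%), against 23.3% of all genes tested. CNT-T rat 13 was the highest CNT-T rat in 5 of the 21 (23.8%), against 29.2% of all genes. The rat with the most Cxcl2 after CNT-7 was therefore often also the highest for NF-kappaB genes, and the rat with the most Cxcl2 after CNT-T was so at about the share seen over all genes.

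The receptor of these ligands, Cxcr2, had 2.04, 0.905, 1.48 and 0.724 CPM in CNT-7 rats 3, 5, 10 and 11 and 0.391, 1.24, 0.396 and 0.0716 CPM in CNT-T rats 1, 2, 12 and 13. Its log2 fold change was 1.26 (95% interval -0.14 to 2.67, edgeR adjusted p = 0.19). Cxcr1 had 0 counts in every rat, which allows a level of up to 0.0887 to 0.109 CPM, according to the rat. Cxcr2 is itself a neutrophil marker. The 9 neutrophil markers listed had a summed level of 33.9 to 63.0 CPM in CNT-7 rats against 26.2 to 68.5 CPM in CNT-T rats, mostly from Csf3r, and without Csf3r to 3.08 to 9.65 against 6.63 to 11.1 CPM. Mpo had 0 counts in every rat, and S100a8 was the listed marker that passed the test, being lower after CNT-7. CNT-7 rat 5, the highest CNT-7 rat for Cxcl1, Cxcl2 and Cxcl3, had 110 counts of S100a9, against at most 20 in any other rat. It also had 11 counts of Mmp8, against 0 in every other rat. S100a8, Csf3r, Cxcr2 and Ltf were higher in another CNT-7 rat than in rat 5. These values of rat 5 were picked after they were seen. The sort took CD11b/c-high, His48-dim cells, a gate apart from that of neutrophils, and the part of any remaining neutrophils in the values of Cxcl1, Cxcl2 and Cxcl3 was not tested.

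Cxcl9, an interferon-gamma induced ligand of Cxcr3, fell after CNT-7, whereas its neighbour Cxcl10 did not pass the test. Cxcl9 (ENSRNOG00000022242) had 6.31, 2.61, 2.49 and 10.4 CPM in CNT-7 rats 3, 5, 10 and 11. It had 31.6, 23.6, 22.5 and 7.02 CPM in CNT-T rats 1, 2, 12 and 13. The groups overlapped through CNT-7 rat 11 and CNT-T rat 13, and the other 3 CNT-T rats were above every CNT-7 rat. The mean was 5.44 ± 3.72 CPM in the CNT-7 group against 21.2 ± 10.3 CPM in the CNT-T group (SD, n = 4 each). The log2 fold change was -1.96 (SE 0.53, 95% interval -3.16 to -0.77, edgeR adjusted p = 0.028). Across fits that omitted single rats it stayed between -2.47 and -1.71, with adjusted p-values of at most 0.073.

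Cxcl10 (ENSRNOG00000022256), which encodes IP-10, had 7.62, 3.58, 1.08 and 26.8 CPM in CNT-7 rats 3, 5, 10 and 11. In CNT-T rats 1, 2, 12 and 13 it had 14.5, 20.7, 15.5 and 12.2 CPM. CNT-7 rat 11 was above all CNT-T rats and the other 3 CNT-7 rats were below all of them. The mean was 9.76 ± 11.6 CPM in the CNT-7 group against 15.7 ± 3.58 CPM in the CNT-T group (SD, n = 4 each), with a log2 fold change of -0.69 (95% interval -2.28 to 0.90, edgeR adjusted p = 0.55). Without CNT-7 rat 11 the log2 fold change was -1.93 and the adjusted p-value 0.024. The difference between the responses of Cxcl9 and Cxcl10 was not established, as the ratio of Cxcl10 to Cxcl9 within each rat was 1.40 ± 0.889 with CNT-7 against 0.940 ± 0.560 with CNT-T (SD, n = 4, exact permutation test, two-sided, p = 0.514, adjusted p = 0.514).

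Cxcl11 (ENSRNOG00000022298) had 10, 2, 0 and 17 counts in CNT-7 rats 3, 5, 10 and 11 and 29, 20, 8 and 6 counts in CNT-T rats 1, 2, 12 and 13, and was not tested. Rats 11 and 10 were thus the highest and the lowest of the CNT-7 rats for Cxcl9, Cxcl10 and Cxcl11. A fit without the filter on low counts gave it an edgeR adjusted p of 0.50.

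The starts of Cxcl9 and Cxcl10 are given because these neighbours differed in how widely the CNT-7 rats were spread. That of Cxcl10 held GAAAGTGAAA, a match to the ISRE core, 243 bases before the start, and the NF-kappaB-like GGGAAATTCC at 187 and GGGAACTTCC at 128 bases before it, the latter being matched again on the reverse strand. That of Cxcl9 held neither, and TTCTCTGAA, a match to the GAS letters, lay 32 bases after the start. That of Cxcl11, not printed, held 1 NF-kappaB-like and 1 GAS match.

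Cxcl9, GRCr8 chr14:16006916-16007215, plus strand: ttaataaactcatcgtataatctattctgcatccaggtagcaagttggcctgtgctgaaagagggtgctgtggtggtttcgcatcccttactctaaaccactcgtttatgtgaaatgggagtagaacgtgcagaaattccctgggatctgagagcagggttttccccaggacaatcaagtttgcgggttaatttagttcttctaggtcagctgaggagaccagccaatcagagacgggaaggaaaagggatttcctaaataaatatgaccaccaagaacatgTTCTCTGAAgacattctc
Cxcl10, GRCr8 chr14:15988816-15989115, plus strand: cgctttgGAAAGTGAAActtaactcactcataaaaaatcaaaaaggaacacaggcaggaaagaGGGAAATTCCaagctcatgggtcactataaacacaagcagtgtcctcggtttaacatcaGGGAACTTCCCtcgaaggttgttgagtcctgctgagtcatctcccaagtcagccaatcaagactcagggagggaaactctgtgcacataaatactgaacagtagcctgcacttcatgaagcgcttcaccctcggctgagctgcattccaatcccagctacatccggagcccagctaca

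Of 28 genes listed for the interferon axis, 25 were tested. After CNT-7, 5 were significantly higher, 1 was lower and 19 did not pass the test, that is 24% called against 27.9% of all genes. In median this list had a log2 fold change of 0.065, against 0.0083 over all genes. Irf8, a transcription factor of monocytes and macrophages that acts on interferon response elements, was significantly lower. It had 20.9, 23.4, 17.5 and 35.4 CPM in CNT-7 rats 3, 5, 10 and 11 and 122.7, 80.1, 75.5 and 85.2 CPM in CNT-T rats 1, 2, 12 and 13, without overlap (log2 fold change -1.90, SE 0.23, edgeR adjusted p = 0.00072). Of the rises that passed the test, the largest were those of Socs1 and Usp18, both inhibitors of interferon signalling. Socs1 had 3.20 ± 0.928 CPM with CNT-7 against 0.581 ± 0.264 CPM with CNT-T (SD, n = 4), with a log2 fold change of 2.45 (SE 0.36, edgeR adjusted p = 0.0018). Usp18 had 50.7 ± 23.7 and 28.8 ± 3.53 CPM (SD, n = 4), with overlap (log2 fold change 0.81, edgeR adjusted p = 0.071).

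The spread of Cxcl10 among the CNT-7 rats was shared by the interferon list. CNT-7 rat 11 was the highest CNT-7 rat in 20 of its 25 genes (80%) and CNT-7 rat 10 the lowest in 16 of them (64%), both together holding for 16 genes. Over all genes tested, rat 11 was the highest in 26.9%, rat 10 the lowest in 28.3% and both held in 13.3%. Mx1, an antiviral GTPase named after its values were seen, had 113.5, 90.8, 29.8 and 335 CPM in CNT-7 rats 3, 5, 10 and 11 and between 87.4 and 154 CPM in the CNT-T rats. Rsad2, also named after its values were seen, had 8.80, 4.82, 0.867 and 32.3 CPM across the CNT-7 rats, against 3.97 to 7.12 CPM in the CNT-T rats. For both genes the order of the CNT-7 rats was 11, 3, 5 and 10, as for Cxcl9 and Cxcl10. These orders were also chosen after the values were seen and are given as a description.

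**Figure D3:**
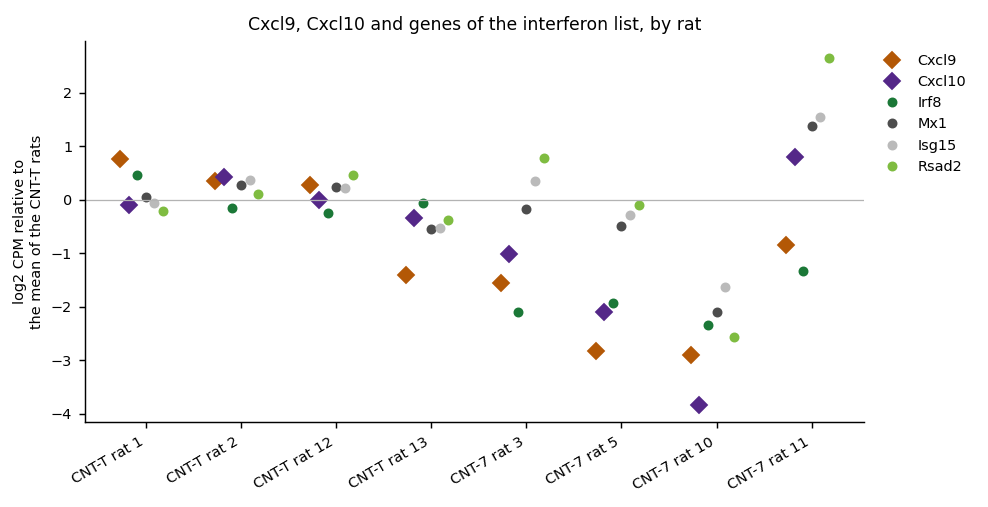
Log2 CPM of Cxcl9 and Cxcl10 (diamonds) and of 4 genes of the interferon list (circles) in each rat, relative to the mean log2 CPM of the 4 CNT-T rats, which is the line at 0. In CNT-7 rat 11 Cxcl10 (26.8 CPM), Mx1 (335 CPM) and Rsad2 (32.3 CPM) lie above every CNT-T rat, in CNT-7 rat 10 they lie below every CNT-T rat, and Irf8 lies below the CNT-T rats in all 4 CNT-7 rats.

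The interferon genes Ifng and Ifnb1 had 0 counts in every rat. Cxcr3, the receptor of these ligands, had 0.445 ± 0.338 CPM with CNT-7 against 0.595 ± 0.145 CPM with CNT-T (SD, n = 4), with a log2 fold change of -0.43 (95% interval -1.62 to 0.76, edgeR adjusted p = 0.63). The 8 T and NK cell markers listed had a summed level of 10.9 to 13.4 CPM in CNT-7 rats against 2.41 to 4.55 CPM in CNT-T rats. Without Cd8a, which rat macrophages can also carry, the sums lay between 3.69 and 8.84 and between 1.70 and 3.79 CPM. Of the 3 tested, Cd2 and Cd8a were significantly higher after CNT-7, and Klrd1, with 1.48 to 2.09 CPM in CNT-7 rats against 1.11 to 2.80 CPM in CNT-T rats, did not pass the test. Cd3e, a defining T cell gene, had 63 counts in CNT-7 rat 5 and at most 14 counts in any other rat, and Gzmb had 0 counts in every rat. Of 6 dendritic cell markers 3 were tested, and Clec9a and Ccr7 were significantly higher after CNT-7. Zbtb46, with 2.89 to 6.83 CPM in CNT-7 rats against 3.80 to 7.92 CPM in CNT-T rats, did not pass the test. The list had a summed level of 5.61 to 11.6 CPM in CNT-7 rats against 4.37 to 8.38 CPM in CNT-T rats. Without Zbtb46, its gene of highest mean level, the sums lay between 1.19 and 5.76 and between 0.456 and 0.593 CPM. The part of these cells in the results was not tested.

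Pf4 (ENSRNOG00000028015), also known as CXCL4, had the most counts of the members and fell after CNT-7. It had 253, 312, 183 and 412 CPM in CNT-7 rats 3, 5, 10 and 11, from 7712, 9299, 5081 and 11389 counts. In CNT-T rats 1, 2, 12 and 13 it had 569, 720.3, 466 and 527 CPM, from 17452, 24370, 14149 and 14728 counts. All CNT-7 rats were below all CNT-T rats. The mean was 290.1 ± 96.8 CPM in the CNT-7 group against 571 ± 108 CPM in the CNT-T group (SD, n = 4 each). This gave a log2 fold change of -0.98 (SE 0.23, 95% interval -1.49 to -0.46, edgeR adjusted p = 0.015), a 1.97-fold difference. Across fits that omitted single rats it stayed between -1.19 and -0.81, and its adjusted p-value was at most 0.045. Of the 9 macrophage markers, 5 were also lower after CNT-7 and 2, Cd14 and Gata6, were higher, and their part in the result was not tested.

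Markers of platelets and their precursors had few counts. Ppbp (ENSRNOG00000002829), which lies next to Pf4 and is stored with its product in platelets, had 1 count in CNT-7 rat 3, 1 count in CNT-T rat 1 and 0 counts in the other 6 rats. Of the 11 platelet and megakaryocyte markers listed, Gp9, Gp1ba, Gp1bb and Gp5, which encode the receptor of von Willebrand factor, had 0 counts in every rat. The list had a summed level of 5.67 to 12.3 CPM in CNT-7 rats against 11.7 to 15.1 CPM in CNT-T rats. Most of this was from P2ry12, and without it the sums lay between 1.62 and 3.05 and between 2.09 and 3.46 CPM. The part of platelets in the fall of Pf4 was not tested.

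Cxcl13 (ENSRNOG00000024899) had 2, 1, 1 and 8 counts in CNT-7 rats 3, 5, 10 and 11 and 0, 6, 1 and 4 counts in CNT-T rats 1, 2, 12 and 13. A level above the floor of 3 counts was thus seen only in CNT-7 rat 11 and in CNT-T rats 2 and 13, and no difference was detectable at this depth. Its receptor Cxcr5 had between 0 and 13 counts and was not tested, nor was Cxcr6, which had 13 counts in CNT-7 rat 5 and at most 2 counts in any other rat. B cell markers had a summed level of 0.181 to 3.38 CPM in CNT-7 rats against 0.215 to 0.652 CPM in CNT-T rats, with 6 of the 7 listed genes in the table.

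**Figure D4:**
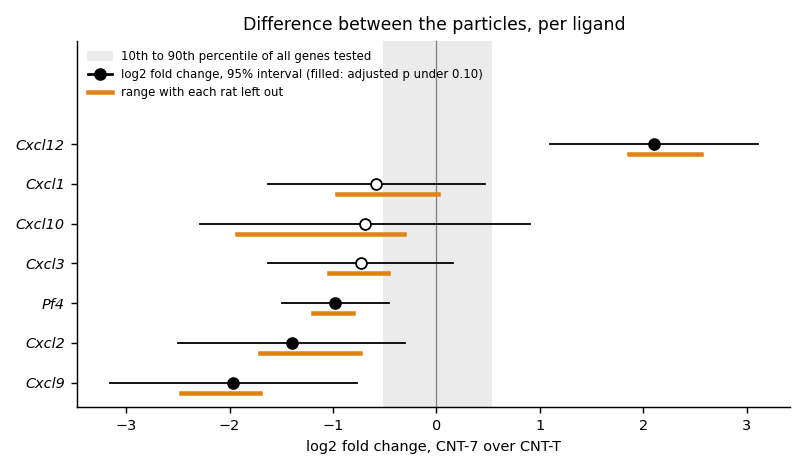
Log2 fold change (CNT-7 over CNT-T) of the 7 ligands tested with its 95% interval, filled where the adjusted p-value was under 0.10, and the range obtained with each rat left out in turn (orange). Grey marks the middle 80% of all genes tested, from -0.51 to 0.53. The point of Cxcl12 lies to the right of it and those of all the others to the left. Of these, Cxcl9, Cxcl2 and Pf4 are filled and Cxcl3, Cxcl10 and Cxcl1 are open. The orange range of Cxcl1 reaches 0.013.

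Of the other small ligands listed, Cxcl14 and Cxcl16 were tested. Cxcl14, a ligand of epithelia and some leukocytes, had 2.84 ± 0.291 CPM with CNT-7 against 7.97 ± 0.656 CPM with CNT-T (SD, n = 4), without overlap, and was significantly lower after CNT-7 (log2 fold change -1.49, SE 0.13, edgeR adjusted p = 0.00025). Cxcl16, the membrane-bound ligand of Cxcr6, had 59.4 ± 20.6 and 82.5 ± 14.3 CPM (SD, n = 4), with a log2 fold change of -0.47 (95% interval -1.04 to 0.095, edgeR adjusted p = 0.23). Cxcl6, Cxcl17, Cx3cl1 and Xcl1 did not pass the filter on low counts.

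**Figure D5:**
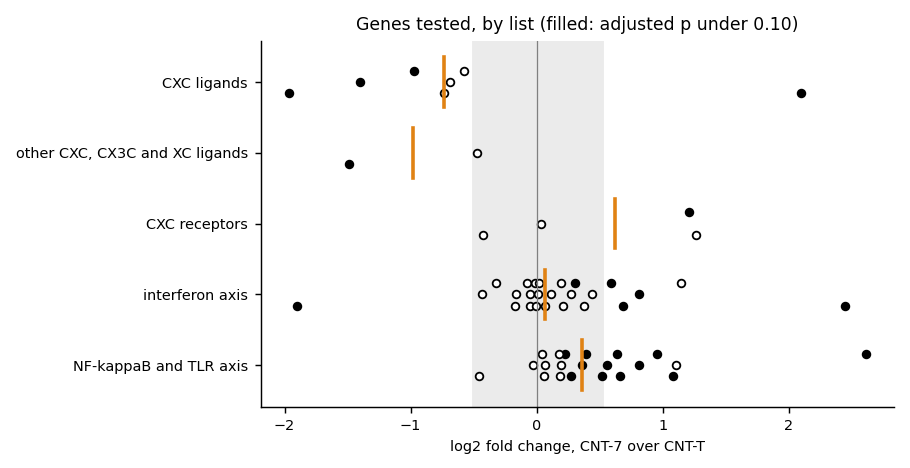
Log2 fold change (CNT-7 over CNT-T) of every gene tested in the 5 lists, filled where the adjusted p-value was under 0.10, with the median of each list in orange and the middle 80% of all genes tested in grey. The CXC ligands (median -0.73) lie mostly left of 0, with Cxcl12 at 2.10, the NF-kappaB and Toll-like receptor genes (median 0.36) lie mostly right of 0, and the interferon genes (median 0.065) lie on both sides.

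The ligands also differed in how far rats of the same group lay apart. On the log2 CPM scale the SD within groups was 1.37 for Cxcl10, 0.97 for Cxcl9, 0.83 for Cxcl2, 0.78 for Cxcl1, 0.69 for Cxcl12, 0.64 for Cxcl3 and 0.40 for Pf4. Only 0.775% of the genes tested had a larger value than Cxcl10, and 17.0% had a larger one than Pf4. Among the CNT-7 rats the highest value of Cxcl10 was 24.7 times the lowest, whereas among the CNT-T rats it was 1.69 times the lowest.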

How the data were processed

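The data are estimated gene counts of sorted macrophages, 4 rats with CNT-7 and 4 with CNT-T. The authors ran the ARMOR workflow, with FastQC, Salmon on the Ensembl rat cDNA sequences of Rnor_6.0 and tximeta. The values deposited by the authors are estimated counts, as whole numbers and not normalized, and 0 columns were left out. For Salmon, a version was not given in the sources used here. Such counts share out reads that fit several transcripts, which could affect Cxcl1, Cxcl2 and Cxcl3.

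All genes were fitted with edgeR 4.0.16 in R 4.3.3 (quasi-likelihood test, TMM normalization, filterByExpr with min.count 10 and min.total.count 15, Benjamini-Hochberg adjustment). The threshold was an adjusted p of 0.10, which the study also used. CPM uses TMM-normalized library sizes, log2 CPM a prior count of 2, and the SE was taken from the fold change and the F statistic, as |log2 fold change| / sqrt(F). The labels do not say how the libraries were batched, and p-values measure the spread between these rats. No test was run over the members as a set or over a list, and ratios of 2 members were compared by exact permutation tests. The members, the gene lists and the rule for named genes were chosen with earlier results of these data known. The rule names all 10 members, every CXC receptor, the 2 largest called rises and falls of each list, and, for each member of at least 1 CPM, the 3 genes nearest in mean absolute difference of centred log2 CPM. Cxcl5, Ackr1 and Cd79a, which were listed, were not analysed here. Values of 1 further gene of the interferon list are not reported here.

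The alternatives were DESeq2 1.42.0, upper-quartile scaling, a fit without the filter or with a stricter one (10 counts in each library), the threshold 0.05, a required 2-fold difference, a block for low and high rat numbers, and leaving out single rats. The fits were tested on simulated counts. Promoters are those of RefSeq (GRCr8), and none of the counts was placed on that assembly.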

Additional observations from a re-analysis of the deposited data

How the results depend on the processing

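Between 6 and 10 CXC ligands were tested under each of the 15 alternatives. Of these, between 3 and 4 were called, against 4 of 7 in the fit reported. The share called of all genes tested ran from 8.3% (2-fold change required) to 30% (DESeq2), against 27.9% in the fit reported. Cxcl9 and Cxcl12 kept their direction and their call in all alternatives that tested them, whereas with at least 10 counts in every rat Cxcl12 was not tested. Pf4 lost its call only where at least a 2-fold change was required. Cxcl2 lost its call in 7 of the 15 alternatives, with adjusted p-values from edgeR and DESeq2 between 0.042 and 0.19 over all of them. Cxcl1 changed direction without CNT-T rat 13 (log2 fold change 0.013, adjusted p = 0.99 from edgeR), and its values with each rat left out ran from -0.96 to 0.013. Cxcl10 passed the threshold only without CNT-7 rat 11. The cause was not tested for Cxcl2, Cxcl1 and Cxcl10.

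At an adjusted p-value under 0.05, edgeR called 0 of the 4 CXC receptors tested (1 at an unadjusted p-value under 0.05), against 20.7% of all genes. With each rat left out, at the threshold of 0.10, between 0 and 1 were called, against 21% to 28.7% of all genes. DESeq2 called 1 of 4 at an adjusted p-value under 0.10, against 30% of all genes. This was Ackr3, with a DESeq2 adjusted p of 0.033. Requiring at least a 2-fold change left 2 genes of the interferon list and 2 of the NF-kappaB list, as smaller changes are removed by construction. Without CNT-7 rat 11, 4 genes of the interferon list rose and 3 fell. No paired analysis was possible because the groups share no rat number. In rats numbered up to 5, the difference in mean log2 CPM was 0.084 for Cxcl1 and -0.82 for Cxcl2, and in those numbered from 10 it was -0.97 and -1.55. Depth limits Cxcl11, Cxcl13 and Ppbp, which were tested only in the fit without the filter, with edgeR adjusted p-values of 0.50, 0.91 and 0.99.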

Other observations

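The genes whose levels over the 8 rats were nearest to those of each ligand were sought among 11098 candidates. Nearness is the mean absolute difference in log2 CPM, each gene centred on its own mean, and is given as a description. A gene chosen in this way resembles its ligand by construction. Nearest to Cxcl12 were Prkcq (0.27), Cybrd1 (0.36) and Ccl2 (0.37). Ccl2, the gene of a ligand that attracts monocytes, had 109 ± 19.4 CPM with CNT-7 against 23.1 ± 11.2 CPM with CNT-T (SD, n = 4). Nearest to Pf4 were Cep72 (0.13), Adssl1 (0.13) and Gpd1 (0.15), closer than any genes were to the other ligands.

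Cxcl2 was nearest to Ttc9 (0.36), AABR07035539.1 (0.37) and Akr1b8 (0.37), and Cxcl1 to Xk (0.34), AABR07035539.1 (0.35) and Plpp3 (0.36). Between Cxcl1 and Cxcl2 themselves the difference was 0.37. Cxcl3 was nearest to Mdk (0.31), Xk (0.31) and Wwc3 (0.32).

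Cxcl9 was nearest to Bcl7a (0.41), Zbtb47 (0.43) and Bcam (0.46), while its difference from Cxcl10 was 0.73. Cxcl10 was nearest to Klrk1 (0.31), Ms4a6bl (0.35) and Sez6 (0.42). Klrk1, which encodes the activating receptor NKG2D, had 17.1 ± 16.1 CPM with CNT-7 against 25.1 ± 3.10 CPM with CNT-T (SD, n = 4).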
